A study of Sus scrofa with 22 samples.

Results

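The glandular epithelium (GE) of the pig endometrium was compared between pregnant and cyclic gilts on Day 12, which the labels count as gestation in the pregnant gilts and from ovulation in the controls. All libraries labelled GE were taken, which gave 8 of the 22 libraries of the series, 4 from pregnant gilts (gilts 01, 03, 05 and 14) and 4 from control gilts (gilts 02, 04, 06 and 13), with 1 library from each gilt. All gilts were prepuberal German Landrace × Piétrain crossbreds whose ovulation had been synchronised with PMSG and hCG. Pregnant gilts had been inseminated with semen, and control gilts with the supernatant of semen, so both groups carried the hormone treatment and an insemination. Cells were cut by laser capture microdissection (LCM) from frozen sections stained with cresyl violet, and low-input RNA-seq libraries were made from very few cells. The same 8 gilts also gave a library each of luminal epithelium (LE), which is used here only to place the GE values.

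Uterine glands secrete the proteins, ions, lipids and sugars on which a pig conceptus lives before it attaches, since attachment in this species is late and superficial. At this time the elongating conceptuses release estrogens, interleukin 1 beta and, somewhat later, interferons, and the corpora lutea are kept. Glands lie in the stroma under the luminal epithelium and open to the lumen through it, so a laser cut around a gland can hold fibroblasts, vessels or epithelium of the gland mouth.

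GE libraries held 1994670 to 3702061 read counts on 11676 listed genes, and 3 counts in a library corresponded to 0.81 to 1.51 CPM (counts scaled to a common library size). Pearson correlations of log2 CPM between libraries of a group ran from 0.692 to 0.919 in the controls and from 0.848 to 0.931 in the pregnant gilts. All 16 epithelial markers were listed, with EPCAM, the epithelial adhesion molecule, between 102.6 and 597 CPM over the 8 libraries. Of 7 uterine gland markers 4 were listed, and SERPINA14, CXCL14 and PAX8 were not. FOXA2, the transcription factor of uterine glands, was found at 16.9 to 108.5 CPM and was not listed for LE. The other 3 listed gland markers were listed for LE as well. Of 16 neutrophil markers only MMP8 and ITGAM were listed, and 0 of 7 markers of lymphatic endothelium.

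**Figure D1:**
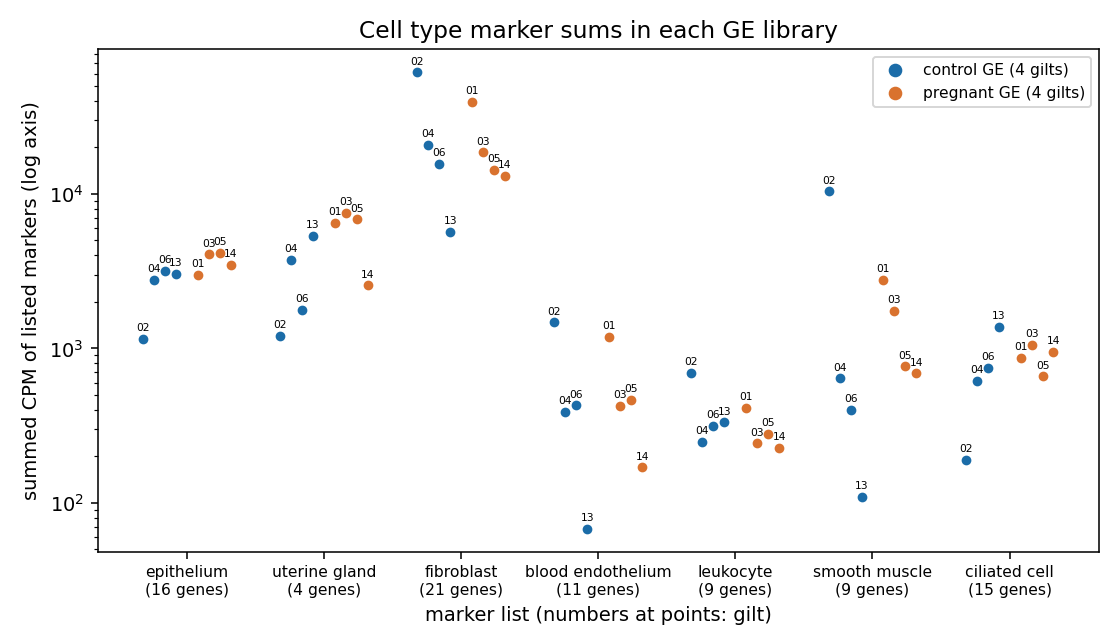
Summed CPM of the listed markers of 7 cell types in each GE library (log axis; blue, 4 control gilts; orange, 4 pregnant gilts; the number at a point is the gilt). Control gilt 02 has the highest fibroblast, smooth muscle and blood endothelium sums and the lowest epithelial sum.

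The GE libraries differed in how much other tissue they held. Summed over 21 listed fibroblast markers, the level was 61289 CPM in control gilt 02, 20675 in gilt 04, 15692 in gilt 06 and 5660 in gilt 13. Pregnant gilts had 39627, 18568, 14388 and 13130 CPM in the order 01, 03, 05 and 14. The groups overlapped widely, and the mean log2 difference of pregnant minus control was 0.08 (exact permutation test, two-sided, p = 0.971, n = 4 and 4, smallest possible p = 0.0286). Smooth muscle markers set control gilt 02 apart, at 10398 CPM against 109.9 to 639 CPM in the other controls and 688 to 2781 CPM in the pregnant gilts. Its epithelial sum was 1149 CPM, whereas the other 7 libraries had 2784 to 4170 CPM. In every GE library the sum of the 21 fibroblast markers exceeded that of the 16 epithelial markers. None of the 9 listed smooth muscle markers and none of the 21 listed fibroblast markers was called between the groups by the quasi-likelihood test used for all genes, and 0 had a p below 0.05. Of the fibroblast markers 18 had a lower fitted level in pregnancy (median log2 fold change −0.29), and so had all 9 smooth muscle markers (median −0.74). In bulk libraries of this kind, fewer cells of a type and less RNA per cell cannot be told apart.

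Transcripts typical of LE were followed through the GE libraries of the same gilts. Genes were taken as luminal-rich where control LE averaged at least 20 CPM and stood at least 4 times above GE in each control gilt. No gene passed this in all 4 control gilts, and without gilt 06 the rule found 96 genes. In the GE of gilt 06 these genes stood at 65.9% of their LE level in the same gilt (median over 95 genes with at least 20 CPM in that LE library). The median was 15.3%, 14.99% and 2.60% in control gilts 02, 04 and 13, which had chosen the genes, and 28.8%, 12.98%, 20.5% and 13.8% in pregnant gilts 01, 03, 05 and 14, which had not. The control GE library of gilt 06 therefore held luminal-rich transcripts near their LE level, and the 4 pregnant GE libraries held them at levels between those of gilts 13 and 06. Of the 96 genes, 2 were called higher in pregnant GE, TRPV6 and COL17A1, and 0 lower. By the same rule with the tissues exchanged, 25 genes were gland-rich in all 4 control gilts. The quasi-likelihood test called 0 of them, and 1 had a p below 0.05. Control GE values chose both sets and are also an arm of this test. The choice favours higher calls among luminal-rich genes and lower calls among gland-rich genes. No conclusion on pregnancy is drawn from these call counts.

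Pregnant and control GE were compared with edgeR's quasi-likelihood test, and a gene was called at a p below 0.0021, the cut-off the study used for GE. By this rule 81 genes were called (0.694% of the 11676 tested), 67 higher (0.574%) and 14 lower (0.12%) in pregnancy. About 24.5 genes would pass this cut-off if none had changed, and the adjusted p of edgeR after Benjamini-Hochberg (false discovery rate, FDR) at the cut-off reached 0.300. At an FDR below 0.01 only ANXA8 remained, at an FDR below 0.05 ANXA8 and LOC100153783, and 945 genes (8.09%) had a p below 0.05, 554 (4.74%) with a higher and 391 (3.35%) with a lower level. The 2 groups did not overlap in any of the 81 called genes, which the cut-off itself favours with 4 libraries in each group. Over all listed genes they did not overlap in 575 (4.92%). In pregnant gilt 14, 42 of the 67 higher genes had their lowest pregnant level. When each library was left out in turn, 30 of the 81 genes were called every time, 15 in 4 to 7 of the 8 fits and 36 in 1 to 3. Without control gilts 02 and 06 together, which held the most fibroblast and the most luminal-rich transcripts among the controls (a choice made after seeing the data), 82 genes were called, of which 29 were among the 81.

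**Figure D2:**
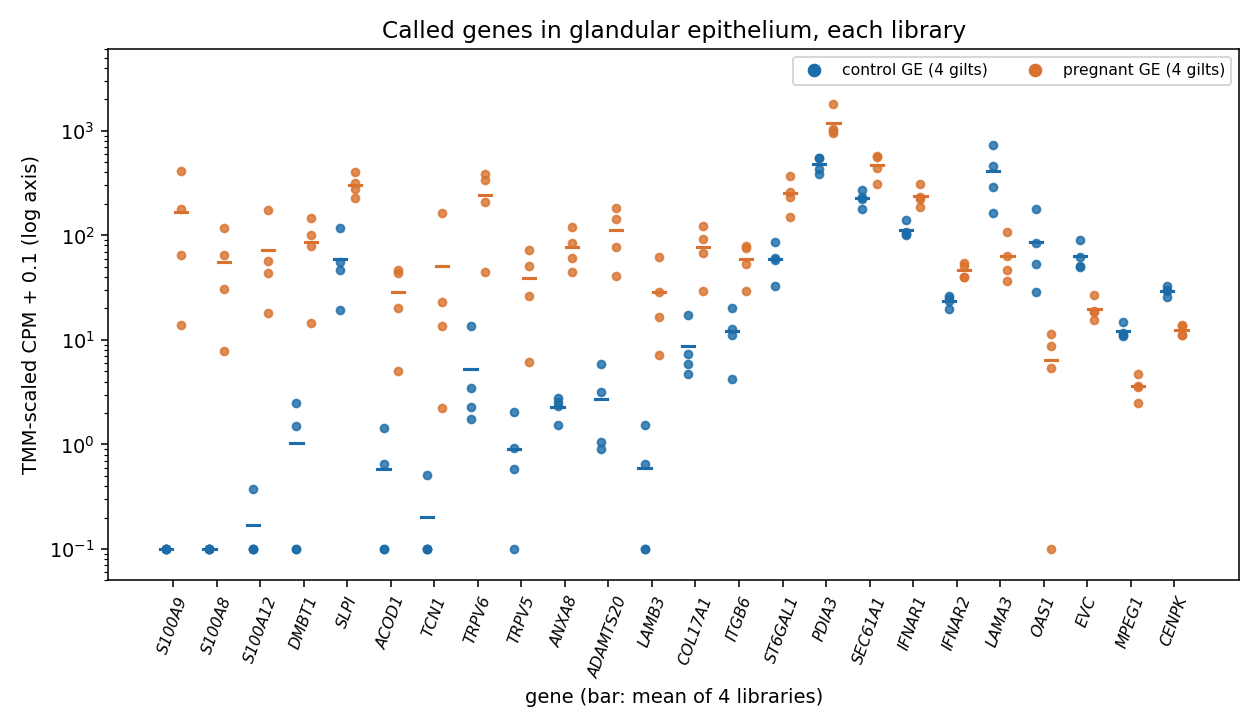
CPM plus 0.1 (log axis) of 24 called genes in each GE library (blue, 4 control gilts; orange, 4 pregnant gilts; bar, mean of 4). The genes from S100A9 to IFNAR2 lie higher in every pregnant library than in any control library, and the 5 genes from LAMA3 to CENPK lie lower.

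Called genes of innate defence included 2 without a count in any control library, S100A8 and S100A9. Of 34 genes fixed for this group 23 were listed, of which 6 were called higher and 0 lower (26.1%, against 0.694% of all listed genes). This list, as the others below, was fixed with earlier results of these data known. It includes genes that the study had named from the same libraries, such as S100A8, S100A9 and S100A12. The share is therefore a description and no independent support for the group. By the quasi-likelihood test 11 had a p below 0.05 with a higher level and 3 with a lower level. In sign 14 were higher and 9 lower. The median log2 fold change (FC) of the 23 was 0.78 against −0.02 over all listed genes. S100A8 and S100A9, whose products pair as calprotectin and bind calcium, zinc and manganese, and S100A12, a related alarmin, lie next to each other on chromosome 4. The 250 bases before the annotated start of the 3 genes are shown because these windows hold or lack the letters of the motifs described with them (Sscrofa11.1, RefSeq annotation, 5′ to 3′ in the direction of the gene; capitals mark a motif match).
S100A8 (chr4:96209420-96209669, plus strand): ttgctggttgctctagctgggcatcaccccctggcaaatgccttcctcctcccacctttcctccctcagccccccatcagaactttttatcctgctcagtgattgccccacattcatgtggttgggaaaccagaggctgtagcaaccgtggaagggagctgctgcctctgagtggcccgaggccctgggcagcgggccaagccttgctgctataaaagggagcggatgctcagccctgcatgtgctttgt
S100A9 (chr4:96238990-96239239, minus strand): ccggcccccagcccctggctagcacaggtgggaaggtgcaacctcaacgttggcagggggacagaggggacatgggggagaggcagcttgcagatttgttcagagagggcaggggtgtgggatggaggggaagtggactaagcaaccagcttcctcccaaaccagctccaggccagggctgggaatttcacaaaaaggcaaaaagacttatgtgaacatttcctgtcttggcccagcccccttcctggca
S100A12 (chr4:96225441-96225690, plus strand): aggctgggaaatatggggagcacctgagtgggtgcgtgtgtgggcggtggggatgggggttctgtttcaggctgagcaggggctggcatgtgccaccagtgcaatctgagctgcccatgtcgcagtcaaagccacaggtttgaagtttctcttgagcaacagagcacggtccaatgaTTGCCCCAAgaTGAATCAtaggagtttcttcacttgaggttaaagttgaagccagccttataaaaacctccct
Letters searched on both strands were those of NF-kB (GGG, 3 bases, TTCC), C/EBP (TTGC, 2 bases, CAA), the interferon response (TTTC, 2 bases, TTTC), AP-1 (TGA, 1 base, TCA) and the estrogen response element (GGTCA, 3 bases, TGACC). The S100A12 window held the letters searched for C/EBP 73 to 65 bases and those for AP-1 62 to 56 bases before the start. The other 2 windows held none of the 5 patterns. Over 11673 listed genes with such a window, 1.58% held the C/EBP letters, 3.96% the AP-1 letters, 6.55% those of NF-kB, 2.69% those of the interferon response and 1 gene (0.00857%) those of the estrogen response element. The AP-1 letters stood before 9 of the 67 higher genes (13.4%), among them ITGB6, COL17A1, SEC61A1 and S100A12, and before 4 of the 14 lower ones (28.6%). Among the higher genes, 5 held the NF-kB letters (7.46%), 2 those of C/EBP (2.99%), 2 those of the interferon response (2.99%) and 0 those of the estrogen response element, and among the lower genes 1 held the NF-kB letters (7.14%) and 0 those of the other 3 motifs. A match is a run of letters and was not tested as a binding site.

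S100A9 had 0 counts in all 4 control GE libraries and 411, 179.9, 64.6 and 13.8 CPM in pregnant gilts 01, 03, 05 and 14. The pregnant mean was at least 155-fold above 3 counts per library (FDR = 0.216). S100A8 also had 0 counts in the controls and 116.6, 64.9, 30.7 and 7.78 CPM in pregnancy, at least 51.0-fold higher (FDR = 0.189). Both genes ranked the pregnant gilts in the same order, with gilt 01 highest and gilt 14 lowest. S100A12 had 1 count in the 4 control libraries and 174.1, 43.2, 56.8 and 18.0 CPM in the pregnant ones, a ratio of counts of 751 with a 95% counting interval of 134 to 29713 (FDR = 0.0570). The call of S100A9 was lost without pregnant gilt 03 or 05 (p up to 0.00294), and those of S100A8 and S100A12 were kept in all 8 fits.

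DMBT1, a scavenger receptor protein secreted by mucosal epithelia, had 0, 2.38, 1.39 and 0 CPM in the controls and 146.9, 79.7, 101.7 and 14.5 CPM in pregnancy (log2 FC 6.55 ± 1.02 SE, FDR = 0.138). It was not listed for LE. SLPI, an inhibitor of leukocyte elastase, was present in all libraries, with 47.0, 19.1, 55.3 and 116.7 CPM in control gilts 02, 04, 06 and 13 and 315, 401, 276 and 226 CPM in pregnancy. Its log2 FC was 2.35 ± 0.48 (FDR = 0.216), and the call was lost in 5 of the 8 fits without a library, those without control gilt 02 or 06 or pregnant gilt 01, 03 or 05. ACOD1, the enzyme that makes itaconate, was at 0 to 1.35 CPM in the controls and at 20.2, 43.2, 46.1 and 4.95 CPM in pregnancy (log2 FC 5.58 ± 0.95, FDR = 0.138). Among members that did not pass, CD14 had a mean of 8.79 CPM in control and 40.7 CPM in pregnant GE (FDR = 0.425). CD14 passed the same p cut-off with the exact test, the likelihood ratio test and DESeq2. Of 24 leukocyte markers 9 were listed and 0 called, 3 with a higher and 6 with a lower fitted level, and CD3E and TYROBP were among those not listed. Their summed level was 249 to 694 CPM in control and 226 to 412 CPM in pregnant GE. CD68 had a p below 0.05 with a higher level, and PTPRC and ITGAM with a lower one. The 2 listed neutrophil markers differed in sign, with MMP8 at a mean of 25.3 CPM in control and 289 CPM in pregnant GE and ITGAM at 18.5 and 9.07 CPM, and neither was called. MMP8 was 1 of the 96 luminal-rich genes. CSF3R, MPO and ELANE were not listed. The part of these cells in the values was not tested.

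Clade B serpins are inhibitors of serine proteases inside and outside cells. The list fixed for them held only genes named SERPINB, so genes of the family under other names were not counted. None of its 5 listed members was called, and 3 of them had a p below 0.05. Their median log2 FC was 2.24 (range −0.34 to 9.32). SERPINB2 had 0 counts in the controls and 74.7, 0.302, 23.8 and 11.3 CPM in pregnancy (FDR = 0.406), with gilt 03 near 0. SERPINB2 passed the same p cut-off with the exact test, the likelihood ratio test and DESeq2. SERPINB7 was at 4.53 CPM in control gilt 02, at 0 in the other controls and at 70.7, 17.5, 30.7 and 7.42 CPM in pregnancy (FDR = 0.333). SERPINB7 passed the cut-off with the exact and likelihood ratio tests and with the fibroblast marker sum as covariate, but not with DESeq2. LOC100153783, annotated as ovalbumin and not covered by that list, passed at 0 to 0.954 CPM in the controls and 32.3, 34.7, 31.9 and 15.2 CPM in pregnancy (log2 FC 5.65 ± 0.61, FDR = 0.0405). The negative for the 5 members therefore does not extend to this gene. LOC100513074, a Kazal-type inhibitor gene, rose as well (log2 FC 4.51 ± 0.72, FDR = 0.138).

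The gene with the smallest p was ANXA8, which codes for a calcium-dependent phospholipid-binding protein. Its level was 2.47, 1.43, 2.22 and 2.70 CPM in control gilts 02, 04, 06 and 13 and 121.1, 61.0, 84.6 and 44.2 CPM in the pregnant gilts. The log2 FC was 5.09 ± 0.40 (FDR = 0.00519), and the call held in all 8 fits without a library.

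Calcium channels of the apical membrane rose together. TRPV6 had 1.65, 3.34, 13.6 and 2.16 CPM in the controls and 336, 388, 207 and 44.2 CPM in pregnancy (log2 FC 5.49 ± 0.89, FDR = 0.138). TRPV5 had 0 to 1.94 CPM in the controls and 50.5, 73.1, 26.1 and 6.01 CPM in pregnancy (log2 FC 5.47 ± 0.97, FDR = 0.146). The spans of the 2 genes overlap on chromosome 18, and 27.5% of the TRPV6 and 2.11% of the TRPV5 exon bases lie in exons of other annotated genes, so some reads could belong to another gene. They were the only called members among 25 listed genes of calcium entry and exchange (median log2 FC 0.06). Of the 25, 4 had a p below 0.05 with a higher level and 1 with a lower level.

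LAMA3 and LAMB3, which code for chains of basement membrane laminins, were called in opposite directions. LAMA3 had 162.7, 737, 293 and 464 CPM in control gilts 02, 04, 06 and 13 and 46.4, 62.8, 36.8 and 107.1 CPM in pregnant gilts 01, 03, 05 and 14 (log2 FC −2.71 ± 0.51, FDR = 0.189). LAMB3 had 0 to 1.43 CPM in the controls and 61.6, 16.3, 28.4 and 7.07 CPM in pregnancy (log2 FC 5.87 ± 1.01, FDR = 0.138). No control library reached the lowest pregnant library in LAMB3, and no pregnant library reached the lowest control in LAMA3. The call of LAMA3 was lost without pregnant gilt 01 or 03 (p up to 0.0026). COL17A1, a collagen of hemidesmosomes, rose from a mean of 8.68 ± 5.78 CPM (SD, n = 4) to 78.0 ± 39.4 CPM (SD, n = 4), with a log2 FC of 3.14 ± 0.55 (FDR = 0.143). ITGB6, an integrin subunit that binds latent TGF-beta and osteopontin, rose from 12.0 ± 6.62 CPM to 59.0 ± 22.8 CPM (SD, n = 4 each; log2 FC 2.28 ± 0.48, FDR = 0.231). The call of ITGB6 was lost without control gilt 04 or 06 or pregnant gilt 01, 03 or 05 (p up to 0.00419). In all, 4 of the 36 listed basement membrane and receptor genes were called higher and 1 lower, with a median log2 FC of −0.07. SPP1, which codes for osteopontin, averaged 15.1 ± 13.5 CPM and 42.3 ± 30.7 CPM (SD, n = 4 each) with overlapping groups and did not pass (FDR = 0.645).

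Few genes of protein export were called, and most fitted differences were small. Of 63 genes of translocation into the endoplasmic reticulum (ER), folding and ER stress, all listed, 59 had a higher fitted level in pregnancy. The median log2 FC was 0.62, against −0.02 over all listed genes, and it ran from 0.45 to 0.68 over the fits without a single library and was 0.52 without control gilts 02 and 06. Only 3 of the 63 were called higher and 0 lower, and 26 had a p below 0.05, all with a higher level (41.3% of the list, against 4.74% of all listed genes). PDIA3, a disulfide isomerase for glycoproteins, had 546, 432, 383 and 548 CPM in the controls and 954, 999, 1790.3 and 1037.8 CPM in pregnancy (log2 FC 1.32 ± 0.27, FDR = 0.216). PDIA6, of the same family, had 79.5, 83.5, 78.3 and 108.0 CPM against 158.0, 163.6, 309 and 165.1 CPM (log2 FC 1.19 ± 0.26, FDR = 0.280). Pregnant gilt 05 was the highest library in both. SEC61A1, the pore of the translocon, had 224, 232, 180.2 and 269 CPM against 569.8, 307, 565 and 440.4 CPM (log2 FC 1.06 ± 0.24, FDR = 0.291). These calls depended on single libraries: PDIA3 was lost without control gilt 04 or 06, PDIA6 without control gilt 02, 04 or 06 or pregnant gilt 03, and SEC61A1 in 7 of the 8 fits, being kept only without pregnant gilt 03. The epithelial marker sum was lower in control gilt 02 than in every other library, and its mean difference of pregnant minus control was 0.63 on the log2 scale (exact permutation test, two-sided, p = 0.0857, n = 4 and 4). Of the 16 epithelial markers 13 had a higher fitted level (median log2 FC 0.43), as had 4 of 4 listed uterine gland markers (median 0.73; difference of the sums 1.08, exact permutation p = 0.171, n = 4 and 4). The part of these shifts in the ER values was not tested.

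**Figure D3:**
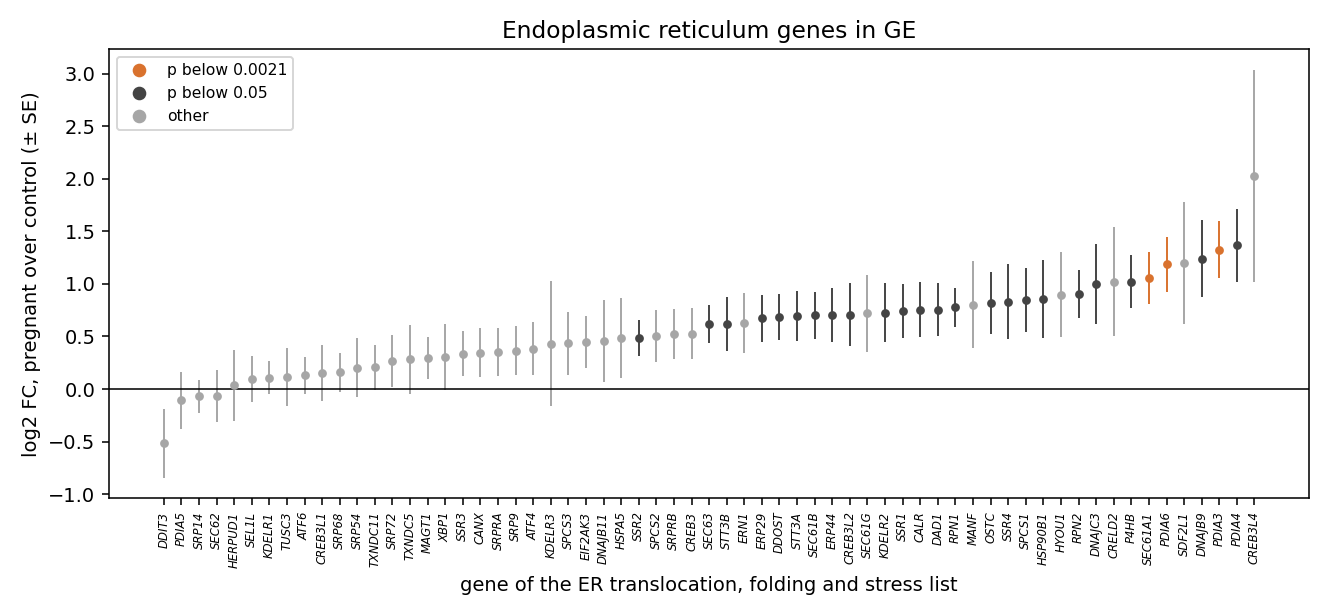
Log2 FC of pregnant over control GE (± SE) for the 63 listed genes of ER translocation, folding and stress, in order (orange, p below 0.0021; dark grey, p below 0.05; light grey, other). 59 of 63 lie above 0, and 3 are called.

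Of 54 listed genes of transport between ER and Golgi the quasi-likelihood test called 0, 9 had a p below 0.05, and their median log2 FC was 0.24. Among 44 listed glycosylation enzymes 1 was called, ST6GAL1, which adds sialic acid to the ends of N-glycans (median of the group 0.21). It had 58.5, 61.0, 32.8 and 85.6 CPM in the controls and 234, 369, 149.0 and 259.8 CPM in pregnancy (log2 FC 2.09 ± 0.36, FDR = 0.138), and 28.1% of its exon bases overlap another gene. The call held in all 8 fits without a library.

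Receptors of type I interferon were higher in pregnant GE. IFNAR1 had 103.8, 108.7, 140.2 and 100.2 CPM in the controls and 225, 232, 308 and 186 CPM in pregnancy (log2 FC 1.07 ± 0.21, FDR = 0.204). IFNAR2 had 25.1, 26.2, 19.7 and 23.2 CPM against 39.9, 51.0, 54.8 and 40.3 CPM (log2 FC 0.98 ± 0.20, FDR = 0.216). The call of IFNAR1 was lost without control gilt 04 or 13 or pregnant gilt 05 and that of IFNAR2 without control gilt 06 or 13 or pregnant gilt 03 or 05. These were the only called genes of 36 listed receptors and signal carriers of interferons and IL1, whose median log2 FC was 0.15. IFNGR2, a chain of the interferon gamma receptor, averaged 13.99 and 34.0 CPM and did not pass (FDR = 0.468). IFNGR2 passed the same p cut-off with the fibroblast marker sum as covariate.

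Genes that interferons induce were called in 1 case. Of 48 listed members 0 were called higher and 1 lower, 36 had a lower fitted level, and the median log2 FC was −0.37. The lower gene was OAS1, an enzyme that senses double-stranded RNA, with 53.1, 177.4, 84.7 and 28.9 CPM in control gilts 02, 04, 06 and 13 and 0, 11.2, 8.70 and 5.30 CPM in pregnant gilts 01, 03, 05 and 14 (log2 FC −3.71 ± 0.84, FDR = 0.284). All 4 pregnant libraries lay under the lowest control library. The call was lost in 5 of the 8 fits, without control gilt 04 or 06 or pregnant gilt 03, 05 or 14. Without pregnant gilt 14 the median of the list was −0.96 and 5 members were called, and without pregnant gilt 03 it was −0.18 and 0 were called, so its size rested on single libraries.

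Other single genes called higher were carriers, enzymes and signalling genes. TCN1, a vitamin B12 binding protein of secretions, had 1 count in the controls and 13.6, 162.7, 23.2 and 2.12 CPM in pregnancy, a ratio of counts of 666 with a 95% counting interval of 119 to 26362 (FDR = 0.216). Its call was lost whenever a control library was left out (p up to 0.00652). SLCO5A1, a member of the organic anion transporter family, was the only called gene of 25 listed for prostaglandin synthesis, transport and receptors (log2 FC 5.33 ± 0.93, FDR = 0.141). HPGD, which inactivates prostaglandins, had 138.0, 103.5, 529 and 45.1 CPM in the controls, with gilt 06 highest, and 51.5, 28.1, 73.3 and 32.5 CPM in pregnancy, and did not pass (FDR = 0.468). HPGD passed the same p cut-off with DESeq2. It is 1 of the 96 luminal-rich genes, with 773 CPM in the LE of gilt 06, whose GE held these genes near their LE level. DHRS4, a reductase of retinal, rose from 12.3 ± 3.66 to 68.6 ± 20.5 CPM (SD, n = 4 each; log2 FC 2.46 ± 0.31, FDR = 0.0631), as the only called gene of 20 listed for retinoids. LPAR3, the receptor of lysophosphatidic acid tied to implantation, rose from 23.4 ± 9.83 to 96.5 ± 41.7 CPM (SD, n = 4 each; log2 FC 2.03 ± 0.39, FDR = 0.201) and was the only called gene of 43 growth factors and receptors. FGF7, an epithelial growth factor, averaged 142.5 and 473 CPM and did not pass (FDR = 0.356), although the groups did not overlap. FGF7 passed the same p cut-off with the exact test, the likelihood ratio test and DESeq2, and the study reported it as higher in GE. ADAMTS20, a secreted metalloprotease (log2 FC 5.39 ± 0.71, FDR = 0.0807), was the only called member of 40 listed metalloproteases and cathepsins. The call of LPAR3 was lost without control gilt 04 or 13 or pregnant gilt 01 or 05 (p up to 0.00275). The quasi-likelihood test called 0 of 25 steroid receptors and enzymes, 0 of 20 genes of cholesterol synthesis (median log2 FC −0.44), 0 of 20 of cholesterol transport and 0 of 13 of the sodium pump group. At a p below 0.05 there were 3, 2, 2 and 5 genes in these groups, where 8.09% of all listed genes had such a p. SULT1E1, which sulfates estrogens, averaged 33.8 CPM in control and 144.6 CPM in pregnant GE with overlapping groups (FDR = 0.568).

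Among genes called lower, EVC, a protein of the base of the primary cilium, had 49.4, 51.0, 89.7 and 62.4 CPM in the controls and 18.7, 26.6, 15.4 and 18.4 CPM in pregnancy (log2 FC −1.68 ± 0.27, FDR = 0.138). MPEG1, a pore-forming protein best known from macrophages, had 11.5, 10.97, 10.8 and 14.6 CPM against 3.53, 2.42, 3.48 and 4.595 CPM (log2 FC −1.77 ± 0.32, FDR = 0.146). CENPK, a kinetochore protein, had 30.1, 32.4, 25.5 and 29.4 CPM against 11.104, 13.9, 13.6 and 10.96 CPM (log2 FC −1.24 ± 0.21, FDR = 0.138) and was the only called gene of 39 listed for the cell cycle, whose median log2 FC was 0.37. The calls of EVC, MPEG1 and CENPK held in all 8 fits without a library. NTN4, a laminin-related protein, was lower as well (log2 FC −1.36 ± 0.32, FDR = 0.300), and its call was lost in 6 of the 8 fits, being kept only without control gilt 06 or pregnant gilt 03 (p up to 0.00773).

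Levels in GE were then set beside LE of the same gilts. Of the 67 genes called higher 63 were listed for LE, and 50 of them were also higher there at an FDR below 0.01, whereas 0 were lower. DMBT1, TCN1, SLC1A1 and SLC18A2 were the 4 that were not listed. Of the genes called lower 12 were listed for LE, and 4 of them were also lower there and 0 higher. Over all genes listed for LE, 1146 passed this FDR in either direction, and the number higher alone is not given here. In the median pregnant gilt, 42 of the 63 stood in GE at under 50% of their LE level. The share of all 10851 genes listed for both that did so is not given either. These counts are therefore descriptions of the called genes and are not set against a background. LAMB3 stood at 9.36%, S100A8 at 11.7%, S100A12 at 12.3%, S100A9 at 13.1%, TRPV6 at 13.6%, ANXA8 at 14.9% and ACOD1 at 15.1% of LE, where the luminal-rich genes had medians of 12.98% to 28.8% in these gilts. TRPV6 is itself 1 of the luminal-rich genes. Other genes described above as higher in pregnant GE also stood far below LE in the median pregnant gilt. TRPV5 stood at 12.8%, LOC100153783 at 14.1%, LPAR3 at 15.01%, ADAMTS20 at 16.9%, IFNAR2 at 21.4% and IFNAR1 at 23.3% of LE. In 27 of the 63 genes no pregnant gilt exceeded the 90th percentile of its own luminal-rich genes, and in 20 genes all 4 gilts did. All genes given a percentage above were among the 27. This percentile was 57.1%, 39.7%, 48.5% and 24.9% in pregnant gilts 01, 03, 05 and 14. In control gilts 02, 04, 06 and 13 it was 21.7%, 22.8%, 86.9% and 14.96%. Some luminal-rich genes exceeded LE in pregnant GE, as MFAP5 in gilt 01 (70.7 against 22.5 CPM). The split therefore does not measure luminal transcripts in GE. The part of luminal transcripts in the GE level of the 27 genes was not tested.

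A second set stood higher in GE than in LE in every pregnant gilt, a count also given without the share over all genes. These 11 genes were ST6GAL1, SLPI, CDO1, GLCE, HM13, NEBL, SLC39A11, PDIA6, SLC39A7, SEC61A1 and PDIA3. ST6GAL1 stood at 2687% and SLPI at 2118% of LE in the median pregnant gilt. CDO1, which oxidises cysteine, had 67.5, 43.4, 28.6 and 125.1 CPM in control GE and 278, 153.7, 532 and 829 CPM in pregnant GE (log2 FC 2.76 ± 0.62, FDR = 0.280), and stood at 766% of LE. GLCE, an epimerase of heparan sulfate synthesis, rose from 88.5 ± 11.5 to 209.5 ± 58.1 CPM (SD, n = 4 each; log2 FC 1.24 ± 0.24, FDR = 0.189). SLC39A7 and SLC39A11, both zinc transporters, had log2 FCs of 0.97 ± 0.20 (FDR = 0.216) and 1.16 ± 0.21 (FDR = 0.146). Of these 11 calls, only those of ST6GAL1 and SLC39A11 held in all 8 fits without a library, and that of CDO1 was kept only without control gilt 13 or pregnant gilt 03. The call of GLCE was lost without control gilt 04 or pregnant gilt 03 or 05, and that of SLC39A7 without control gilt 04, 06 or 13 or pregnant gilt 01 or 05. Those of HM13 and NEBL were each lost in 5 of the 8 fits, without control gilt 04 and pregnant gilts 03 and 05 for both, and also without control gilt 06 and pregnant gilt 01 for HM13 and control gilt 13 and pregnant gilt 14 for NEBL.

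**Figure D4:**
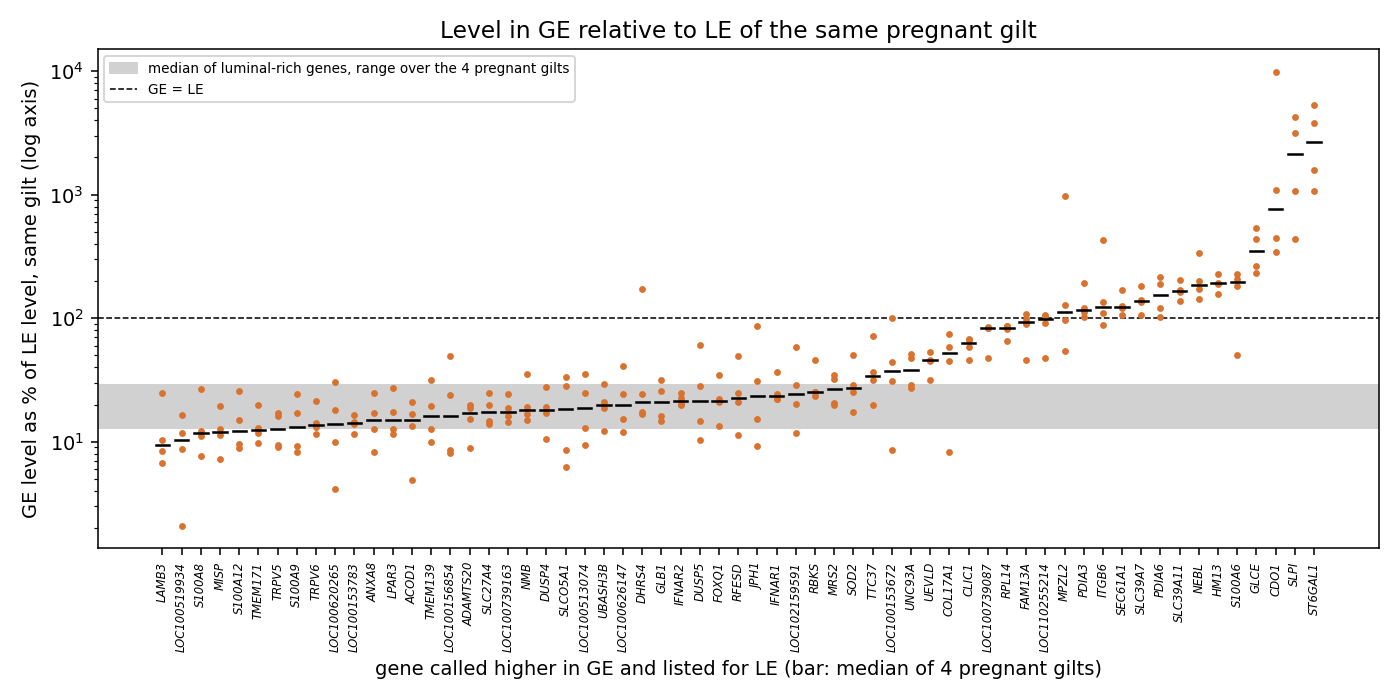
Level in GE as a percentage of LE in the same pregnant gilt (log axis) for 61 of the 63 genes called higher in GE and listed for LE (points, 4 pregnant gilts; bar, median; grey band, range over these gilts of the median of luminal-rich genes; dashed line, equal levels). LAMB3 to ACOD1 lie at 9.36% to 15.1%, and the medians of SLPI and ST6GAL1 at 2118% and 2687%.

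The difference between the responses of GE and LE was tested over the 10851 genes listed for both. With edgeR's quasi-likelihood test 0 genes (0%) differed at an FDR below 0.01, both with and without the gilt as a replicate block. At an FDR below 0.05 there were 153 genes with the block (1.41%) and 104 without it (0.958%), and 1688 and 1439 genes had a p below 0.05. These counts depended on which gilt was left out. With the block, the 153 became 0 without gilt 04, 12 without gilt 03, 15 without gilt 05 and 29 without gilt 06. They became 47 without gilt 01, 142 without gilt 02, 151 without gilt 13 and 206 without gilt 14. Without the block, the 104 became 0 without gilt 03, 04 or 05, 1 without gilt 13, 29 without gilt 02, 31 without gilt 06, 37 without gilt 01 and 206 without gilt 14. The likelihood ratio test called 147 genes at an FDR below 0.01. In the blocked fit IFNAR2 had one of the 10 smallest p values, as its log2 FC was 0.98 in GE and 2.97 in LE (difference −1.98 ± 0.21, FDR = 0.0102). GAB1, an adaptor of receptor kinases, differed by −2.30 ± 0.23 (FDR = 0.0102), PCK2, a mitochondrial enzyme of gluconeogenesis, by −4.58 ± 0.52 (FDR = 0.0102) and the glucose carrier gene SLC5A1 by −4.43 ± 0.52 (FDR = 0.0109). TNIK, a kinase of Wnt signalling, differed the other way, with a log2 FC of 0.85 in GE and −2.44 in LE (difference 3.34 ± 0.36, FDR = 0.0102). S100A8, S100A9, S100A12, TRPV6 and LAMB3 had differences of −0.59, −0.93, −1.17, 0.09 and −2.09, with FDRs of 0.812, 0.846, 0.923, 0.976 and 0.433.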

How the data were processed

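Whole-number read counts per NCBI gene were deposited for 8 GE and 8 LE libraries of 8 gilts. According to the study's methods, the authors clipped adapters, trimmed read starts, mapped with Hisat2 to Sscrofa11.1, removed PCR duplicates by random adapter bases and filtered genes by CPM. The counting tool, use of strand and level of the filter are not given in the sources used here. A gene absent from a table was treated as not analysed there. Gene IDs matched the annotation for 12401 of 12401 genes.

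Counts were normalized by TMM and tested with glmQLFit and glmQLFTest of edgeR 4.0.16 (R 4.3.3), with Benjamini-Hochberg adjustment over all listed genes. Intervals and floors (3 counts) cover counting error only. DESeq2 1.42.0 was an alternative. On simulated GE counts, 161 of 200 genes changed by 2 on the log2 scale were recovered, with 24 false calls. For GE against LE the gilt was the block, since the labels give the same gilts. Deviations of GE and LE from their group means correlated at 0.075 to 0.569 within gilts over 7170 genes, and in gilt 02 (0.075) less than with another gilt (0.128). Marker sums were tested by exact permutation. Named genes were the 15 largest called changes in each direction, called list members, study-named list members that did not pass, defining markers and the 10 smallest p of the GE and LE difference. Genes and lists were chosen with earlier results of these data known. Some called genes and a promoter are not reported here.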

Additional observations from a re-analysis of the deposited data

Results flagged for a closer look

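Within groups of 4 GE libraries, a library was set apart where its gap to the nearest other library exceeded Dixon's 95% critical share of the range. This held in 16 of 180 groups tested (8.89%), and chance flags about 1 in 20. In the controls gilt 02 stood apart in the smooth muscle marker sum (gap 0.9486). Gilt 06 stood apart in TRPV6 (0.8586, at 13.6 CPM against 1.65 to 3.34 CPM), NEBL (0.9228, lowest) and SLC27A4 (0.8291), and gilt 13 in RORA (0.9182, lowest). For S100A12, LOC100620265, LOC100153672 and TCN1 the control gap was 1, which came from 1 count in 1 library. In pregnancy gilt 05 stood apart in PDIA6 (0.9531), PDIA3 (0.9002) and MPZL2 (0.8927), each time as the highest library. Gilt 01 was highest in LOC102159591 (0.8796) and FOXQ1 (0.843), gilt 03 in TCN1 (0.8688, at 162.7 CPM against 2.12 to 23.2 CPM), and gilt 14 was lowest in LOC100153783 (0.855). The causes were not tested.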

How the results depend on the processing

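The count of 81 called genes (67 higher, 14 lower) became 50 (40 higher) with at least 10 counts in every library, 174 (136 and 38) with the exact test, 185 (141 and 44) with the likelihood ratio test, 241 (174 and 67) with DESeq2 and 141 (117 and 24) with the fibroblast marker sum as covariate. It was 1 (1 and 0) at an FDR below 0.01, 2 (2 and 0) at an FDR below 0.05 and 945 (554 and 391) at a p below 0.05. Leaving out single libraries gave 42 to 100 genes, 35 to 88 higher and 7 to 32 lower. The lowest, 42, was without control gilt 04 and 44 without pregnant gilt 05. Without control gilts 02 and 06, chosen after seeing the data, 32 of 82 were lower, and the higher share fell from 82.7% to 61.0%. It was 72.2% with DESeq2 and 68.0% without control gilt 13. No named called gene changed direction in the fits in which it was tested. Under the minimum of 10 counts, 43 called genes kept their call, 1 lost it and the others were not tested. The causes of these shifts were not tested.

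The difference between GE and LE had 0 genes at an FDR below 0.01 with the replicate block as without it, 104 at an FDR below 0.05 and 147 by likelihood ratio. Leaving out single gilts gave 0 to 60 genes at an FDR below 0.01, 60 being without pregnant gilt 14 (7 with the replicate block), and 0 to 206 at an FDR below 0.05 with as without the block. No paired analysis was possible for pregnant against control GE because these groups share no gilt. The fibroblast marker sum in GE, whose difference did not pass the test, was −0.2011 without collagens and ran from −0.4886 (without control gilt 13) to 0.657 (without control gilt 02), being −0.2696 without pregnant gilt 01. The luminal-rich rule found 0 to 96 genes when 1 control gilt was left out. Levels near 3 counts, as in control S100A8 and S100A9, are limited by depth.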
